A study of Mus musculus with 4 samples.

Results

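The interferon-inducible immunity GTPases described here are 10 mouse genes of the immunity-related GTPase (IRG) and guanylate-binding protein (GBP) families: Iigp1, Irgm1, Irgm2, Igtp, Gbp2, Gbp3, Gbp4, Gbp6, Gbp7 and Gbp9. Every probe set annotated to 1 of these genes and to no other was taken, which gave 12 of the 34945 single-symbol probe sets and covered 8 of the 10 genes. Gbp4 and Gbp9 had no such probe set, and the 1 probe set that lists a member together with another gene was not used. The 8 genes with a probe set were 4 IRG and 4 GBP genes. They were chosen by the measured difference between the genotypes on these same arrays, so their values in that contrast are given as a description, without a test.

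Double positive thymocytes, the developing T cells that carry both CD4 and CD8, were profiled on 4 Affymetrix mouse arrays. The 2 samples of the Ikf/f CD4-Cre+ group (Cre+) came from mice 53 and 69, and the 2 samples of the Ikf/f CD4-Cre- group (Cre-) from mice 52 and 57. All 4 mice carry the Ikf/f alleles, and in the Cre+ mice a recombinase driven by the CD4 promoter is intended to remove part of Ikzf1, the gene of the zinc finger protein Ikaros. The labels name no age, strain or isolation method, and without Cre+ mice of another Ikzf1 genotype an effect of the transgene cannot be told apart from one of the deletion. Values are RMA signals on the log2 scale, 1 per probe set and array, and the number of arrays limits their precision.

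Ikzf1 itself read 10.80 and 10.62 in Cre+ samples 1 and 2, against 12.40 and 12.08 in Cre- samples 1 and 2. It fell by 1.53 ± 0.16 (SE, limma adjusted p = 0.024), with an adjusted p between 0.0717 and 0.164 when any 1 array was left out. The mean of its probe sets differed by -0.88, and whether the probes lie in the removed part is not known here. In a limma comparison of all 11639 genes that passed a filter on low signal (a mean of at least 4.76), 129 genes were higher in Cre+ mice (1.11%) and 31 were lower (0.266%) at a Benjamini-Hochberg adjusted p under 0.05. The share of calls that were higher was 80.6%, and it was 61.0% of 123 calls once each array was centred on the median of the kept genes. That centring moved the median difference of the kept genes to -0.068, against 0.061 before it. Markers of double positive cells were present on all arrays, with Rag1, a subunit of the recombinase, between 13.25 and 13.46 and none of the 9 measured markers passing the test. Both Cre+ arrays were below both Cre- arrays for 6 of the 9 (18.7% of kept genes), among them Cd1d1 at -0.66 and Rag2 at -0.41, while Ptcra differed by 1.16 (limma adjusted p = 0.054) and Cd3e by 0.41. By Xist and the Y-linked gene Kdm5d, Cre- sample 2 read as female and the other 3 samples as male.

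Interferons act through cell surface receptors whose JAK kinases activate STAT and IRF transcription factors, and these bind 2 kinds of DNA element: the interferon-stimulated response element and the gamma-activated site. IRG and GBP proteins made in response are large GTPases that assemble on the vacuoles in which intracellular bacteria and parasites live and help to break them open. Among the IRG proteins, Iigp1 is an effector that loads onto such vacuoles, whereas Irgm1, Irgm2 and Igtp sit on the cell's own membranes and hold the effectors inactive there. The mouse genes lie in clusters of close relatives.

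Promoter sequences were available for 6 members. None was available for Iigp1, Gbp4, Gbp6 and Gbp9, so these genes were not searched for motifs. The second start site of Gbp3, which held no match, is not printed. The stretches from 110 to 1 bases before the other annotated start sites of the 6 members are shown. Each stretch printed below holds a match to 1 or both of the interferon elements. They come from RefSeq on GRCm38.p6 and are written 5′ to 3′ on the strand of the gene, with capitals marking matches on either strand to the response element core, a pair of GAAA runs with any 2 bases between them, and to the gamma-activated site TTCNNNGAA.
Irgm1, chr11:48871421-48871530, minus strand: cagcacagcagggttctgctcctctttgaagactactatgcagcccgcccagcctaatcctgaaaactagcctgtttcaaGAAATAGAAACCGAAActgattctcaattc
Irgm2, chr11:58214867-58214976, plus strand: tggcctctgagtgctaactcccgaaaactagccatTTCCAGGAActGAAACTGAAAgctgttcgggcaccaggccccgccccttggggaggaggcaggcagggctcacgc
Igtp, chr11:58199446-58199555, plus strand: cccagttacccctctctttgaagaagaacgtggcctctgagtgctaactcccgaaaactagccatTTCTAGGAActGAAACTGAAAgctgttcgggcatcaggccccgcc
Gbp2, chr3:142620553-142620662, plus strand: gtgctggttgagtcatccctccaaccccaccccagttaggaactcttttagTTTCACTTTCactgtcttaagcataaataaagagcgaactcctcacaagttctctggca
Gbp3, first start site, chr3:142559934-142560043, plus strand: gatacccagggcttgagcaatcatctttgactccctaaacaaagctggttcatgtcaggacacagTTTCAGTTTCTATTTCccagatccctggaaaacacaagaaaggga
Gbp7, chr3:142530226-142530335, plus strand: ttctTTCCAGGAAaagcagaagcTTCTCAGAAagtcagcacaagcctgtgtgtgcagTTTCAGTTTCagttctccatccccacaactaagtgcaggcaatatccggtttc

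Across windows of 300 bases (250 before to 50 after the start), the response element core was found in 6 of the 7 windows of these 6 genes, and in 1131 of all 32851 windows in the table (3.44%). The exception was the second annotated start site of Gbp3. The gamma-activated site was found in 3 of the 7 windows, those of Irgm2, Igtp and Gbp7, against 8.3% of all windows. Irgm1 and Gbp3 each held 2 overlapping copies of the core. In Irgm2 and Igtp the gamma-activated site stood 2 bases upstream of the core. The aligned windows of this pair were identical at 184 of 270 bases (68.1%). The spacing was not particular to this pair, as Gm12185, Tgtp1 and Tgtp2, IRG genes outside the members, held it too. Gbp7 and the remaining genes of the families that held both matches had other spacings. The Ikaros core TGGGAA, searched on both strands, occurred in 2 of the 7 windows, those of Gbp3 and Gbp7, and in 25.6% of all windows; in Gbp3 its match overlapped the second copy of the response element core. Among 11 windows of IRG and GBP genes outside the members, the response element core was found in 7. The gamma-activated site was found in 5 of those 11 and the Ikaros core in 3. A match is a run of letters and was not tested as a binding site.

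**Figure D1:**
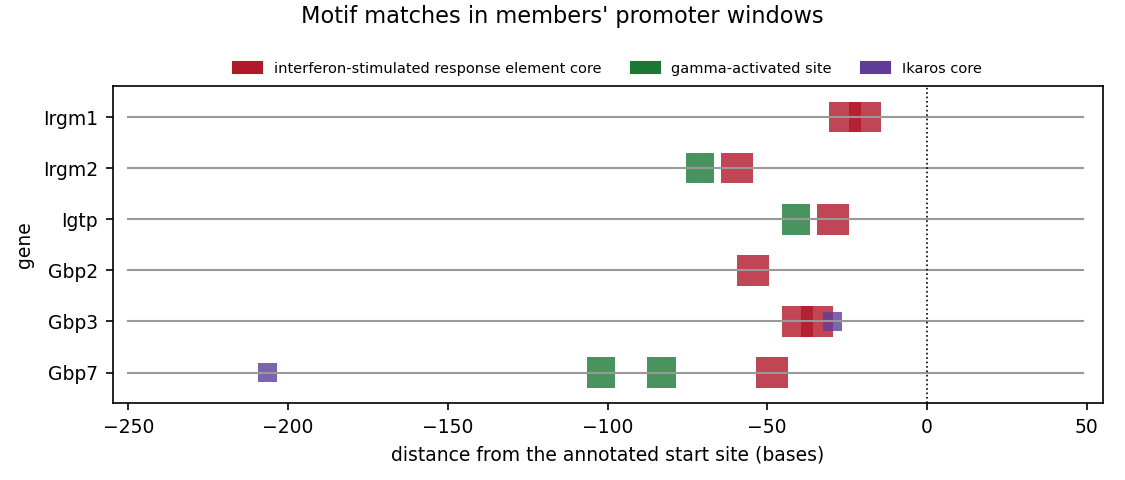
Matches to 3 motifs in the promoter windows of 6 members, drawn by distance in bases from the annotated start site (dotted line); for Gbp3 the first start site is shown. All 6 genes hold a response element core that begins between positions -64 and -24, while Irgm2, Igtp and Gbp7 also hold a gamma-activated site.

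Iigp1, the vacuole-loading effector, showed the largest difference among the members. Its brighter probe set (1419043_a_at) read 8.08 and 9.24 in Cre+ samples 1 and 2, against 4.02 and 4.42 in Cre- samples 1 and 2. Its second probe set (1419042_at) read 6.22 and 7.09 in Cre+ samples, against 3.42 and 3.04 in Cre- samples. Both Cre+ arrays lay above both Cre- arrays on each probe set, with a gap of 3.67 on the brighter and 2.80 on the dimmer one between the lowest Cre+ and the highest Cre- value. The means were 8.66 ± 0.81 in Cre+ and 4.22 ± 0.28 in Cre- mice for the brighter set (SD, n = 2 each), a difference of 4.44 on the log2 scale or 21.7-fold, and the dimmer set differed by 3.43 or 10.8-fold. The Cre- values of both sets were below the signal filter of 4.76, so the size of the fold rests on dim signals. The suffix of the brighter set marks probes that can bind several transcripts.

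The 3 regulatory IRG genes gave 3 different values. Irgm1, which in mice is needed for the survival of T cells exposed to interferon gamma, read 8.38 and 8.48 in Cre+ samples 1 and 2, against 7.01 and 6.90 in Cre- samples 1 and 2. Its means were 8.43 ± 0.08 in Cre+ and 6.95 ± 0.07 in Cre- mice (SD, n = 2 each), a difference of 1.48 or 2.79-fold, and the mice of each genotype lay close together. Irgm2 read 8.90 and 9.40 in Cre+ samples, against 8.46 and 8.23 in Cre- samples. The groups did not overlap, but the gap between them was 0.44 and the Cre+ mice differed from each other by 0.50, for a mean difference of 0.81 or 1.75-fold.

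Igtp, also called Irgm3, gave a high signal in every mouse. It read 11.38 and 11.53 in Cre+ samples 1 and 2, against 11.26 and 11.34 in Cre- samples 1 and 2. The difference of 0.15 was the size of the difference between the 2 Cre+ mice (0.15), the gap between the groups was 0.036, and the difference was 0.022 with arrays centred on the median of the kept genes. Igtp and Irgm2 are the neighbours whose promoter stretches share most of their letters.

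Gbp2 and Gbp3, of the chromosome 3 group, were the GBP genes with the larger differences. Gbp2, a dynamin-like GTPase that is anchored to membranes by a prenyl group and coats parasite vacuoles, was read by 2 probe sets. The brighter one (1435906_x_at) gave 9.80 and 10.13 in Cre+ samples 1 and 2, against 8.38 and 8.87 in Cre- samples 1 and 2. The other (1418240_at) gave 8.87 and 9.21 in Cre+ samples, against 7.62 and 8.03 in Cre- samples. Both separated the genotypes, with differences of 1.34 (2.53-fold) and 1.21 (2.32-fold). Gbp3, whose protein belongs to the same family, read 7.37 and 7.78 in Cre+ samples, against 6.27 and 6.42 in Cre- samples, a difference of 1.23 or 2.34-fold with a gap of 0.95 between the groups. The x_at and a_at suffixes of the brighter Gbp2 set and of the single Gbp3 set mark probes that may bind more than 1 transcript, and GBP genes have close relatives.

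Gbp6 and Gbp7, both described in mice as defences against intracellular bacteria, did not separate the genotypes in the same way. Gbp6 read 10.07 and 10.94 in Cre+ samples 1 and 2, against 10.22 and 10.02 in Cre- samples 1 and 2. Its second probe set (1438676_at) read 8.36 and 9.54 in Cre+ samples, against 8.56 and 8.32 in Cre- samples. On both sets Cre+ sample 2 was high and Cre+ sample 1 lay between the Cre- values, so the differences of 0.39 and 0.52 rest on 1 mouse, and without that array the brighter set differed by -0.053.

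Gbp7 read 9.31 and 9.03 in Cre+ samples 1 and 2, against 9.31 and 8.84 in Cre- samples 1 and 2, on its brighter probe set (1425156_at). Its other set (1434380_at) read 9.13 and 9.17 in Cre+ samples, against 8.89 and 8.86 in Cre- samples. The sets disagreed: the first overlapped, with a difference of 0.094, and the second separated the groups by 0.23 with a difference of 0.27. The first reversed to -0.035 with arrays centred on the median of the kept genes. Of the interferon elements, the Gbp7 promoter stretch holds a response element core and 2 gamma-activated sites, while those of Gbp2 and Gbp3 hold only the core. A link between these matches and the differences was not tested.

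**Figure D2:**
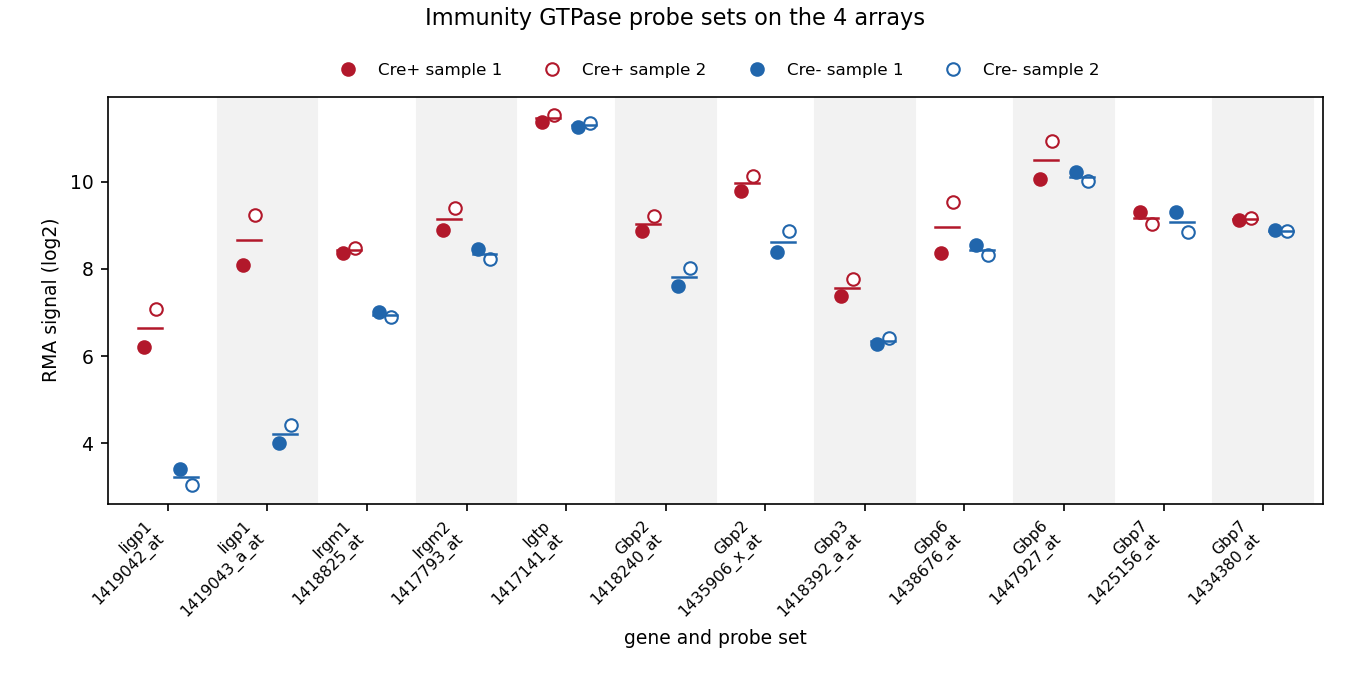
RMA signals (log2) of the 12 probe sets in each mouse, Cre+ left of Cre-, with short lines at the means of 2 mice. Both Iigp1 sets, Irgm1, both Gbp2 sets and Gbp3 stand well apart by genotype, while both Gbp6 sets are high in Cre+ sample 2 and Igtp is near 11.4 throughout.

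Counted together, 9 of the 12 probe sets had both Cre+ arrays above both Cre- arrays, where 26.6% of all single-symbol probe sets did, and 6 of 12 differed by at least 1, where 1.17% did. Of the 8 genes, each by its brighter probe set, all 8 passed the filter on low signal, Iigp1 only through its Cre+ values. Both Cre+ arrays were on top for 6 of them (34.2% of kept genes). The limma fit over all genes included the members, but its result is no test of them, as they were chosen on this contrast. It placed 3 of the 8, Iigp1, Irgm1 and Gbp3, among the genes higher in Cre+ mice (1.11% of kept genes). It placed 0 among the lower ones (0.266%). For 0 of the 8 were both Cre+ arrays below both Cre- arrays, where that held for 18.7% of kept genes. The median difference of the 8 genes was 1.02, with 1.14 over the IRG and 0.81 over the GBP genes, against 0.061 over all kept genes. Nothing was read from these counts, since the genes were chosen with this contrast known. In bulk samples, fewer cells of a type and less RNA per cell cannot be told apart.

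The 2 mice of a genotype offer a contrast that did not enter the choice of genes. Among Cre+ mice, 7 of the 8 genes read higher in sample 2 than in sample 1, with a median of 0.37, where 49.5% of kept genes did and their median was -0.0014. Gbp7 was the exception at -0.28 on its brighter probe set, while its other set differed by 0.039, and 11 of the 12 probe sets read higher in Cre+ sample 2. The largest of these differences were those of Iigp1 (1.15) and Gbp6 (0.88), and the smallest of the other 7 was that of Irgm1 (0.11). Among Cre- mice, 4 of the 8 genes read higher in sample 2, with a median of -0.014, where 46.9% of kept genes did. Each value is a difference between 2 animals and has no replicate. For Iigp1, Irgm1, Irgm2, Gbp2 and Gbp3 the difference between genotypes exceeded both differences between mice of a genotype, while for Igtp, Gbp6 and Gbp7 it did not. The difference between genotypes did enter the choice of genes, so nothing was read from that comparison.

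Lists of other interferon-induced genes gave different values between the Cre+ mice. Of 11 kept genes of antigen processing, 8 were higher in sample 2, with a median of 0.14, and of 30 kept antiviral genes 16 were, with a median of 0.017. Nlrc5, an activator of MHC class I genes, read 7.71 and 8.74 in Cre+ samples 1 and 2. Among markers of granulocytes, 5 of 5 kept markers were higher in Cre+ sample 2, with a median of 1.92. The summed linear signal of the 8 measured granulocyte markers was 184.8 in Cre+ sample 1 and 982.9 in Cre+ sample 2, against 182.2 and 193.0 in Cre- mice. S100a8, a calcium-binding protein gene of neutrophils, read 4.52 and 8.38 in Cre+ samples 1 and 2, against 4.50 and 4.02 in Cre- samples 1 and 2. The part of these cells in the members' values was not tested.

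**Figure D3:**
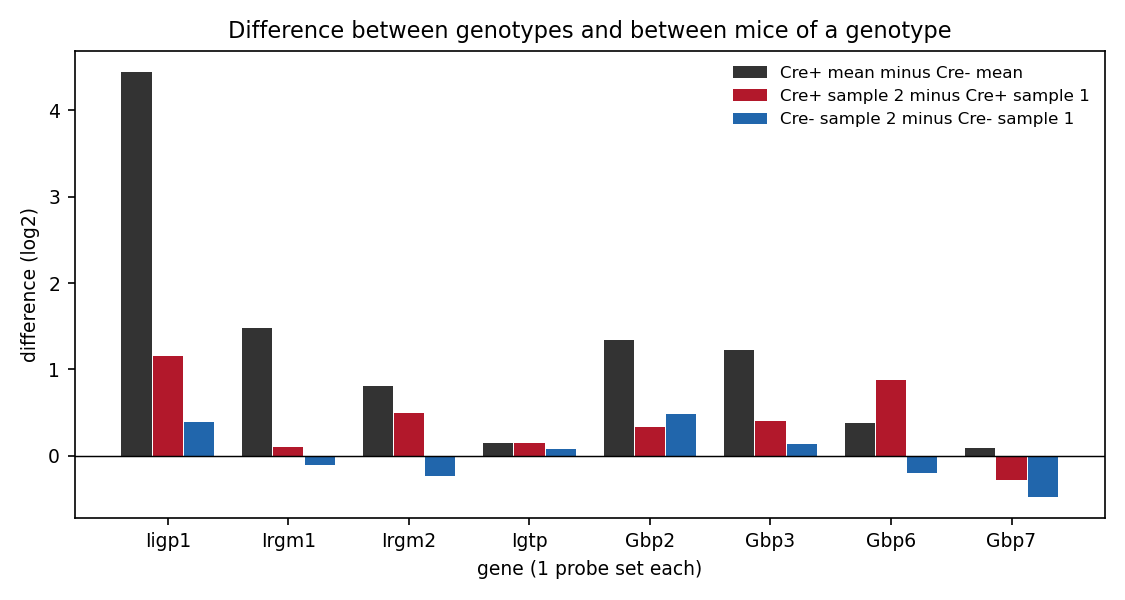
Differences (log2) of the 8 genes, each by its brighter probe set, between the means of the genotypes (dark), between the 2 Cre+ mice (red) and between the 2 Cre- mice (blue). The genotype bar is the tallest for Iigp1, Irgm1, Irgm2, Gbp2 and Gbp3, and the bar between Cre+ mice is the tallest for Gbp6.

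Markers of other cells also differed between the genotypes. The 13 macrophage markers had a summed linear signal of 1015.1 and 1042.5 in Cre+ mice, against 430.2 and 437.9 in Cre- mice, and 2 of 10 kept markers rose, the lysozyme gene Lyz2 and the protease gene Ctss. Of the 10 kept, 6 had both Cre+ arrays on top (34.2% of all kept genes did), and the median of the 10 was 0.66. Besides Lyz2 and Ctss these were C1qa at 1.11, C1qc at 0.95, Tyrobp at 0.82 and C1qb at 0.49, which did not pass. Adgre1 differed by -0.028, Fcgr1 by 0.0017 and Fcer1g by 0.062. Csf1r differed by 0.19 on its brightest probe set and by 1.21 and 0.20 on its other sets. The macrophage receptor genes Mertk and Cd14 were below 4.76 on all arrays. The 10 measured dendritic cell markers summed to 1180.5 and 1228.0 in Cre+ mice, against 427.8 and 566.5 in Cre- mice. Most of the Cre+ sums came from the MHC class II genes H2-Aa, H2-Ab1 and H2-Eb1, which differed by 2.25, 1.58 and 1.68. Of 9 kept, H2-Ab1 and Irf8 rose, and 6 had both Cre+ arrays on top. Flt3 differed by -0.16, Zbtb46 by -0.14 and Siglech by 0.012, while Xcr1 was below 4.76 throughout. Stromal and epithelial markers summed to 3972.5 and 1195.0 in Cre+ samples 1 and 2, against 850.0 and 946.4 in Cre- mice, with Pdgfrb rising of 7 kept and 6 of 13 below 4.76, among them Foxn1. The high sum in Cre+ sample 1 came from the collagen gene Col1a2, which read 11.55 and 8.01 in Cre+ samples 1 and 2, against 5.18 and 5.33 in Cre- samples 1 and 2, a difference of 4.52 that did not pass (limma adjusted p = 0.107). The 9 measured cytotoxic and NK cell markers summed to 2968.7 and 4095.3 in Cre+ mice, against 1359.1 and 1450.2 in Cre- mice. Most of that sum came from Gzma, which rose. Gzma read 11.92 and 11.42 in Cre+ samples 1 and 2, against 10.29 and 10.19 in Cre- samples 1 and 2. Of the 3 kept, 2 had both Cre+ arrays on top, while Prf1, at -0.32, had both below. Below 4.76 on all arrays were 5 of the 9, including Ncr1. B cell markers summed to 6462.5 and 6964.2 in Cre+ mice, against 7527.6 and 8084.7 in Cre- mice, with Jchain rising of 5 kept and Cd79a and Ebf1 below 4.76. Most of that sum came from Ighm, the gene of the IgM heavy chain, which differed by -0.27. Of the 5 kept B cell markers, 3 had both Cre+ arrays on top, and the median of the 5 was 0.18. Jchain read 3.47 and 3.81 in Cre- samples 1 and 2, below 4.76. The part of macrophages, dendritic cells and the other cell types in the members' values was not tested.

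Relatives outside the 10 genes were mixed. Ifi47, an IRG gene of the chromosome 11 cluster that holds Irgm1, read 11.55 and 11.58 in Cre+ samples 1 and 2, against 10.70 and 10.80 in Cre- samples 1 and 2. It rose by 0.81 with a standard error (SE) of 0.11 (limma, Benjamini-Hochberg adjusted p = 0.046), and with any 1 array left out its adjusted p was between 0.136 and 0.217. Gbp8, at the edge of the chromosome 5 cluster that holds Gbp6, read 10.81 and 11.41 in Cre+ samples, against 12.29 and 11.99 in Cre- samples. Its difference of -1.03 ± 0.23 (SE) was opposite in sign to those of Gbp2 and Gbp3 and did not pass (limma adjusted p = 0.0956).

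Gm4951, an IRG gene of the chromosome 18 group that holds Iigp1, read 4.15 and 5.70 in Cre+ samples 1 and 2, against 3.56 and 3.30 in Cre- samples 1 and 2. Its mean lay below the filter and it was not tested. The other measured relatives showed small differences: Gm12185 differed by 0.15 and Gbp2b, below the filter, by 0.16, while Irgc1 and Irgq, which are not known to respond to interferon, differed by -0.070 and -0.064. In all, 1 of the 5 kept relatives rose and 0 fell, where 1.11% and 0.266% of kept genes did, and their median was -0.064.

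Genes next to the clusters, taken as the 4 nearest measured protein-coding genes on each side of 5 gene groups in the RefSeq order of GRCm38.p6, were compared in the same fit. Of 40 neighbours 28 passed the filter, and 0 of them passed in limma, while 4 had an unadjusted p under 0.05, where 20.6% of all kept genes had one. Their differences ran from -0.50 (Zfp692) to 0.41 (Kyat3), with a median of 0.027. Within the chromosome 3 group the order of measured genes was Gbp7 at 0.094, Gbp3 at 1.23, Gbp2b at 0.16 and Gbp2 at 1.34. Gbp2b lay below 4.76 on all 4 arrays and the Gbp7 probe sets disagreed, so no alternation was read from this order. In the chromosome 11 group of Igtp and Irgm2, the adjacent genes differed by 0.15 and 0.81.

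**Figure D4:**
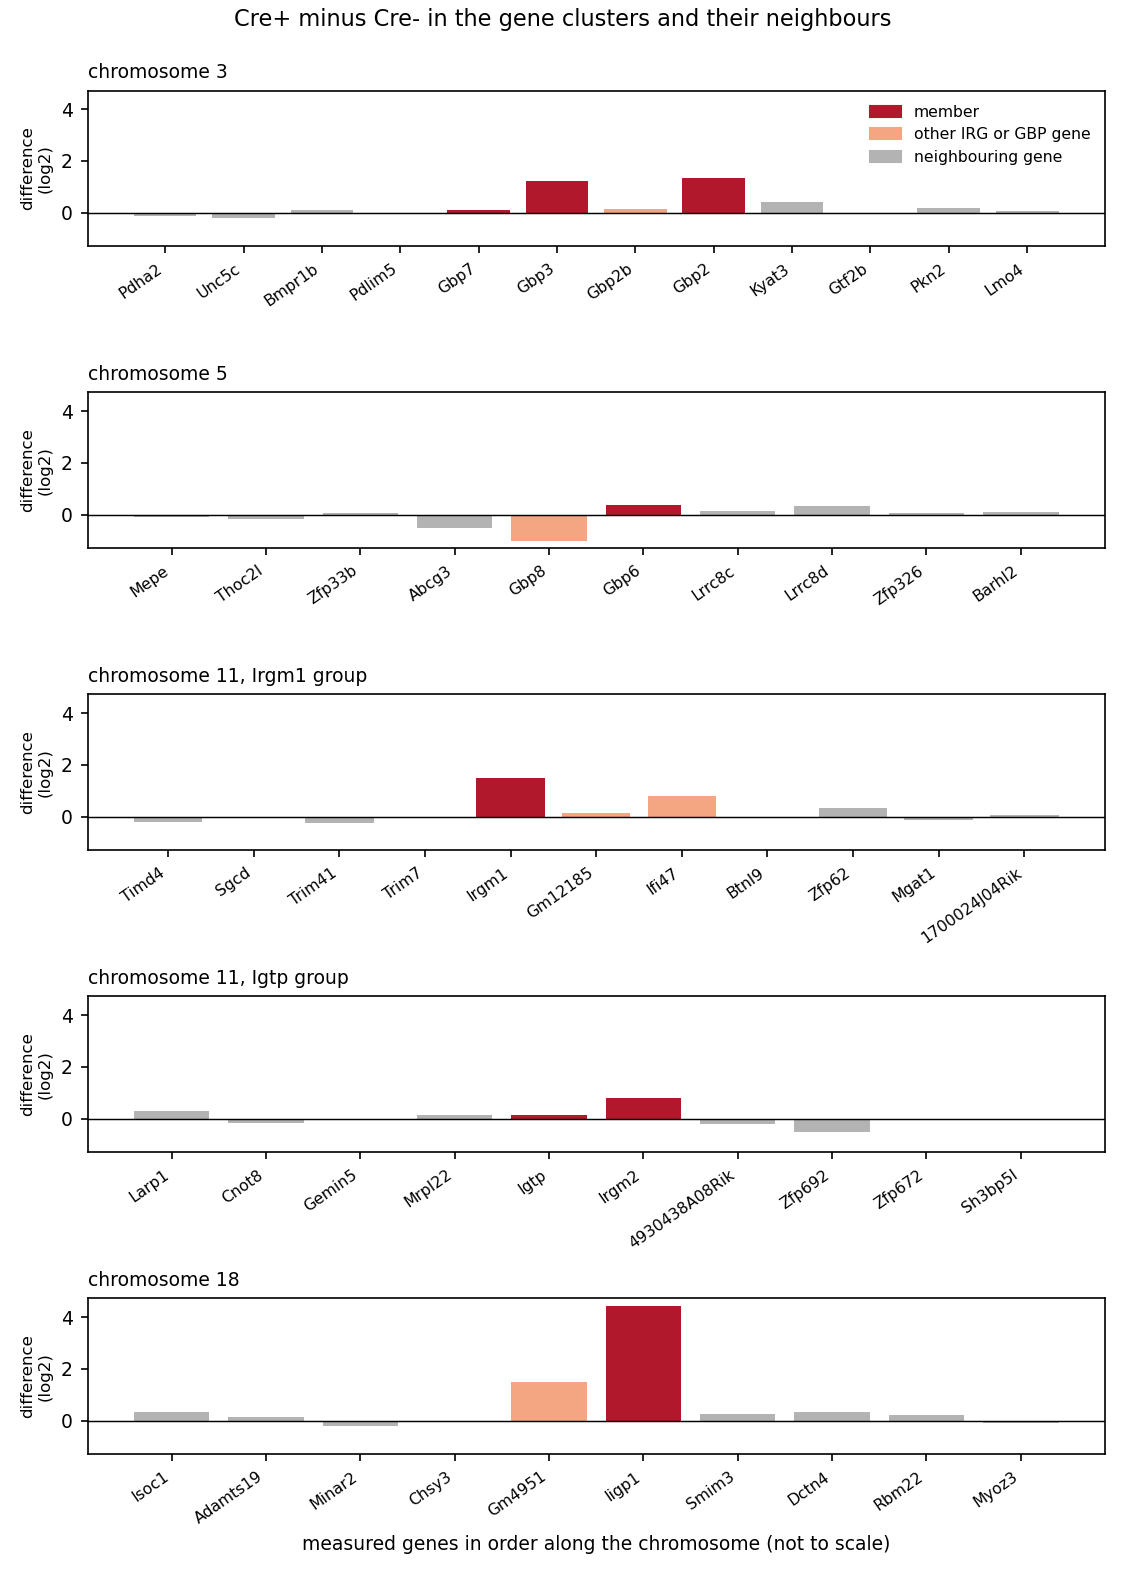
Differences (Cre+ minus Cre-, log2) of measured genes in the order they take along the chromosome, for 5 groups of IRG and GBP genes with 4 neighbours on each side; spacing is not to scale, and genes below the filter are included. Neighbours lie between -0.50 and 0.41, and Iigp1 at 4.44 and Gbp8 at -1.03 are the extremes.

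Upstream of the GTPases, the measured interferon genes were below the filter and were not tested. Of 5 kept receptor genes 0 passed in limma, and 3 had an unadjusted p under 0.05: Ifngr1, Ifnar1 and Ifnar2. Ifng, the gene of interferon gamma, read 3.21 and 3.12 in Cre+ samples 1 and 2, against 2.96 and 3.12 in Cre- samples 1 and 2, below the filter. Ifngr1, a chain of its receptor, differed by -0.51 ± 0.14 (SE, limma adjusted p = 0.129), and Ifnar1, of the type I receptor, by -0.29 (adjusted p = 0.234). Ifnar2 differed by 0.55 on its brightest probe set and by -0.23 and -0.015 on its other sets.

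Among 18 kept JAK, STAT and IRF genes, 2 rose and 0 fell in limma. Irf9, an interferon regulatory factor gene, read 8.24 and 8.50 in Cre+ samples 1 and 2, against 7.39 and 7.16 in Cre- samples, and rose by 1.10 ± 0.15 (SE, limma adjusted p = 0.0442). Irf8, an interferon-regulated factor of myeloid cells, rose by 1.08 ± 0.16 (SE, limma adjusted p = 0.0495), with 0.60 on its other probe set. Nlrc5 differed by 2.37 ± 0.37 (SE, adjusted p = 0.054), Irf1 by 0.77 (adjusted p = 0.075) and Irf4 by 1.02 (adjusted p = 0.0795). The other 13 did not pass. Of 14 kept inhibitors of the pathway only Usp18, which removes ISG15 and blocks the type I receptor, rose, by 2.49 ± 0.15 (SE, limma adjusted p = 0.00715), and 0 fell; Ptpn2 differed by 0.47, Socs3 by 0.51 and Irf2bp2 by 0.57.

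Other genes that interferons induce were compared in the same fit. Of 30 kept antiviral genes, 9 rose, 0 fell and 21 did not pass in limma, with a median of 0.66. Rtp4 rose by 2.71, Ifit1 by 2.63, the RNA sensor Ifih1 by 2.01, Parp12 by 1.87, Xaf1 by 1.72, Oas1a by 1.65, Dhx58 by 1.08, Parp14 by 0.90 and Ifi27 by 0.79. Ifit1 read 4.53 and 4.57 in Cre- samples 1 and 2, below the filter value, so the size of its difference rests on dim signals. Oas3 at 0.88, Cmpk2 at 0.75 and Dtx3l at 0.69 did not pass. The other probe set of Xaf1 differed by -2.49, and the mean of its sets differed by -0.39. The mean over probe sets also gave a smaller 1.59 for Rtp4 and 0.57 for Parp14, and Parp14 then did not pass (limma adjusted p = 0.0721). Of 11 kept genes of antigen processing that interferon gamma induces, 0 passed in limma and 6 had an unadjusted p under 0.05; B2m, the light chain of MHC class I, differed by 0.98 (adjusted p = 0.0579), Psmb9, an immunoproteasome subunit, by 0.98 (adjusted p = 0.0667) and Tapbp by 0.67. The pathway lists together also hold the vacuole partners, lipid anchor enzymes and Gimap genes given below, and were chosen with earlier results known. An unadjusted p under 0.05 was found for 57 of their 119 kept genes, where 20.6% of all kept genes had one. In limma 14 passed, all higher and 1 of them Gimap4, where 1.37% of kept genes passed in either direction. Nothing was read from these counts.

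Those 14 calls rested on all 4 arrays. The count was 6 without Cre+ sample 1, 7 without Cre+ sample 2, 1 without Cre- sample 1 and 0 without Cre- sample 2, where 57 had an unadjusted p under 0.05 in limma. It was 8 when probe sets marked as binding several transcripts were left out and 8 with arrays centred on the median of the kept genes. Cre- sample 2 is the array that read as female, and the part of sex in the calls was not tested. Each fit without 1 of the arrays leaves 1 array in a group.

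**Figure D5:**
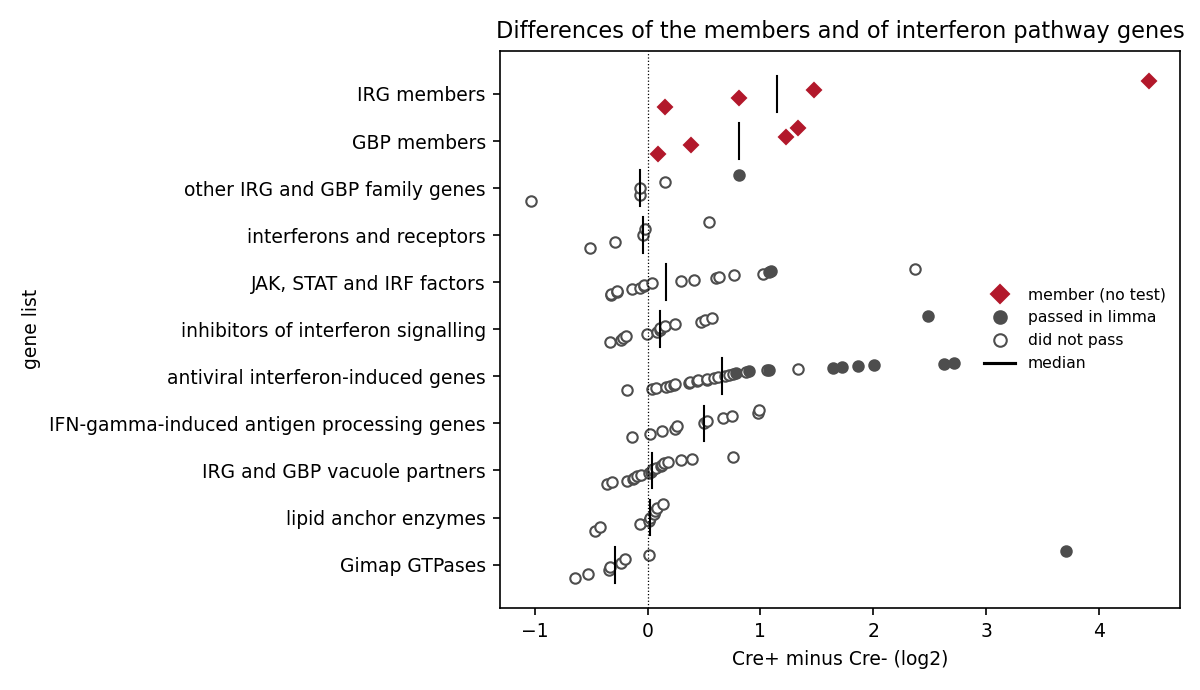
Differences (Cre+ minus Cre-, log2) of the genes kept by the filter in each list, 1 point per gene, with the median as a line; members are diamonds and carry no test, and filled circles passed in limma. The members run from 0.094 to 4.44, the antiviral list has 9 filled points and the lists of vacuole partners and lipid anchor enzymes have 0.

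The genes whose array values lay nearest to those of Iigp1 were found by Euclidean distance, over 4 arrays and all kept genes outside the members. Values were centred on each gene's own mean but not scaled. The distance therefore follows the size of the genotype difference, by which the members were chosen. Ppic, the prolyl isomerase cyclophilin C, was nearest at 0.72, followed by the GTPase gene Gimap4 at 0.85, the adhesion protein gene Mpzl2 at 0.96, the immunoglobulin joining chain gene Jchain at 1.07 and the collagen receptor kinase gene Ddr1 at 1.60. Rtp4, the nearest gene of the antiviral list, stood at rank 7 at a distance of 1.89, with a difference of 2.71 against 4.29 for Ppic. The ranks do not measure how alike the patterns are apart from that size. Ppic, Mpzl2 and Jchain, like Iigp1, read below the filter in both Cre- mice.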

How the data were processed

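The deposited table holds log2 signals, made by the authors with RMA per the submitters' processing notes, which state no version; base 2 was taken because RMA returns it, and no label states the base. Per the labels' protocols, RNA was labelled in a 2-cycle amplification. Background correction and normalization were kept as deposited. Of 45037 probe sets, 34945 had 1 symbol in the platform annotation, 932 several and 9160 none; 34741 matched RefSeq by Entrez identifier. Gene comparisons used limma 3.58.1 in R 4.3.3 (lmFit and eBayes, two-sided, Benjamini-Hochberg adjustment, SE moderated) on the brightest probe set of each of 18193 genes, of which 11639 had a mean at or above the 40th percentile (4.76). Residual degrees of freedom were 2 and prior degrees of freedom 3.59. The smallest p that exact permutation of the 4 arrays allows is 0.333, and limma instead borrows the spread across genes. No pair of arrays shared more than 166 identical values.

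On simulated data for this comparison, with 11639 genes and 200 changed, limma recovered 68 of 100 differences of size 1 and 95 of 100 of size 2 (log2), with 10 false among 173 calls. The simulated spread was drawn from the prior that limma fitted here, with independent normal noise for each gene. These shares therefore hold under limma's own assumptions and do not measure false calls on the real arrays. The members and lists were chosen with earlier results of these data known. The text names every member probe set, Ikzf1, measured relatives, the 5 nearest to Iigp1 and passing markers. In each pathway list it names the passing genes and up to 3 others with the smallest p. Zfp692, Kyat3, Rag1, Rag2, Cd1d1, Ptcra, Cd3e, Ighm, Col1a2, S100a8, Xist, Kdm5d and markers below the filter were added after their values were seen. So were Prf1, H2-Aa, H2-Eb1, Flt3, Zbtb46, Siglech, Adgre1, Fcgr1, Fcer1g, C1qa, C1qb, C1qc, Tyrobp, Csf1r, Tgtp1 and Tgtp2. Plots used matplotlib 3.10.9.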

Additional observations from a re-analysis of the deposited data

How the results depend on the processing

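The number of genes passing in limma was 160. It was 90 with the filter at the 60th percentile, 104 when probe sets marked as binding several transcripts were left out, 245 with a robust variance prior and 3 to 99 with 1 array left out. Over the pathway lists it was 14, and it was 8 without those probe sets, 8 with arrays centred on the median of the kept genes (chosen after seeing the data) and 0 to 7 with 1 array left out. The median difference of the 8 members was 1.02 and ran from 0.79 to 1.25 with 1 array left out. Gbp7 reversed to -0.035 under that centring, to -0.048 without Cre+ sample 1 and to -0.14 without Cre- sample 2, and Gbp6 reversed to -0.053 without Cre+ sample 2; with 1 array left out Gbp7 ran from -0.14 to 0.33 and Gbp6 from -0.053 to 0.82; the cause was not tested. The sample numbers in the labels name different mice, and sample 1 deviations correlated at 0.18 between the groups. A replicate block on them gave 821 and 26 passing genes. Cre- signals below 4.76 limit the size of the differences of Iigp1, Ifit1 and Jchain.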

Other observations

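Proteins that act together with the GTPases showed no call. Of 19 kept genes of conjugation, autophagy and inflammasomes that work with IRG and GBP proteins at vacuoles, 0 passed in limma, 4 had an unadjusted p under 0.05 (20.6% of all kept genes did) and the median difference was 0.044; Rnf213, a ubiquitin ligase induced by interferon, differed by 0.76 (adjusted p = 0.0786), Pycard, the inflammasome adaptor, by -0.36 and Map1lc3a by 0.40. The inflammasome genes Casp1, Casp4 and Aim2 lay below 4.76 on all 4 arrays. Of 9 enzymes that attach or process lipid anchors 0 passed in limma and 2 had an unadjusted p under 0.05, against the same 20.6%, with Rabggtb at -0.47, Rabggta at -0.42, Nmt2 at 0.14 and a median of 0.023.

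The Gimap genes, another family of lymphocyte GTPases, gave 1 gene that rose, Gimap4 (3.71 ± 0.26, SE; limma adjusted p = 0.0117), and 0 that fell of 8 kept. Gimap8 differed by -0.65, Gimap6 by -0.33 and Gimap5 by -0.52, the median was -0.29, and 6 of the 8 had both Cre+ arrays below both Cre- arrays, where 18.7% of kept genes did. When probe sets marked as binding several transcripts were left out Gimap4 differed by 2.08 (adjusted p = 0.0514). Its adjusted p was 0.122 without Cre- sample 1 and 0.0998 without Cre- sample 2.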
